A study of Mus musculus with 37 samples.

Results

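The IL-12 family cytokine genes Il12a, Il12b, Il23a, Il27 and Ebi3 were taken from the deposited expression table by gene name, and they are 5 of the 6509 genes read from it. Each of them is present as 1 transcript in the copy read, which is cut short, so the gene value and the transcript value are the same here. RNA was sequenced from 5 myeloid cell types of C57Bl6cJ mice, with 2 replicate libraries in each of 18 groups. There were 4 groups of macrophages from the peritoneum, of neutrophils from bone marrow, of dendritic cells from spleen (sDCs) and of mast cells grown from bone marrow: untreated, with IL-10, with LPS, and with IL-10 before LPS. Eosinophils, also grown from bone marrow, had an untreated and an LPS group, and no IL-10 group of them was analysed here. IL-10 and LPS, the endotoxin of Gram-negative bacteria, were each used at 100 ng/ml for 4 h, and groups with LPS were harvested 4 h after those without it, so LPS and the longer culture cannot be told apart. Macrophages were the adherent cells of a thioglycollate-elicited exudate, neutrophils were pooled from several mice and kept overnight in GM-CSF, and sDCs were enriched with magnetic beads. No genotype other than the strain is labelled, and an age of the mice was not found in the sources.

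The IL-12 family cytokines are secreted heterodimers, each made of a helical cytokine subunit and a subunit that resembles a soluble cytokine receptor. IL-12 joins p35 (Il12a) to p40 (Il12b), IL-23 joins p19 (Il23a) to the same p40, IL-27 joins p28 (Il27) to EBI3 (Ebi3), and IL-35 has been described as p35 with EBI3. Phagocytes and dendritic cells are the main sources of IL-12, IL-23 and IL-27: IL-12 drives interferon gamma production by T and NK cells, IL-23 sustains cells that make IL-17, and IL-27 has both stimulating and restraining actions on T cells. IL-10 is a cytokine that restrains inflammatory gene expression through STAT3.

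All values are the authors' means of GC-normalized tag counts per transcript over the replicates of a group. They carry no SD and no n here, so no difference was tested, and the spread between replicates cannot be set against any of them. A change is described by its size on log2(mean + 1), a scale on which changes between low values come out too small. The words raised and lowered stand for a difference of at least 2-fold on that scale, in a gene that reached 10 in at least 1 group of the cell type. Sequencing depth cannot be read from the normalized means, so a value of 0 is given as listed at 0. All 18 groups share the same highest transcript value, 185338.

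The labelled cell types were checked against marker genes. The 4 macrophage markers in the table, Emr1, Cd68, Marco and Mrc1, summed to between 99541 and 221165.5 in macrophages and between 14891 and 23017 in eosinophils, where Emr1 reached 22514.5 with LPS against 13108 to 21201 in macrophages. The 6 neutrophil markers in the table summed to between 64189 and 308406.5 in neutrophils, and the 3 mast cell and 2 eosinophil markers summed to at least 277675 and 221356 in their own cell types. Of the neutrophil markers, Ly6g did not set neutrophils apart from eosinophils. It ranged from 70.5 to 161.5 in neutrophils and had 188.5 in untreated and 114 in LPS eosinophils. The neutrophil groups also held eosinophil markers (sum 19648 to 23628), B cell markers (3122 to 4744) and macrophage markers (7588.5 to 18173). Of the 11 sDC markers listed, Itgax, Xcr1 and Clec9a were among the genes read. They summed to between 910.5 and 4508.5 in sDCs and between 5485.5 and 13926 in macrophages. The sum thus did not set sDCs apart, and most of it was Itgax, with 13861 in untreated macrophages and 4075.5 in untreated sDCs. Xcr1 was highest in sDCs, at 185.5 to 205.5, against 63.5 or less in the other cell types. Clec9a was highest in untreated sDCs (243.5), but with LPS it had 49.5 in sDCs and 103.5 in neutrophils. The sDC groups also held neutrophil markers (2312.5 to 9761.5) and B cell markers (1504 to 1778.5). No T cell or NK cell marker of the lists was among the genes read.

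The 5 genes lie on 5 chromosomes (NCBIM37, the build also called mm9). Il12a spans chr3:68495346-68502469 on the plus strand with 7 exons, Il12b chr11:44213565-44227535 on the plus strand with 8 exons, Il23a chr10:127733196-127735140 on the minus strand with 4 exons, Il27 chr7:133732524-133738455 on the minus strand with 5 exons, and Ebi3 chr17:56092046-56096444 on the plus strand with 5 exons. The annotation lists 2 transcripts for Il12a and for Il12b, and the transcript not read from the table is not used here. The 250 bases upstream of the start site of these transcripts are shown for the 3 genes with an entry in a set of RefSeq promoters. Their coordinates are in GRCm38.p6 and not in the build of the gene positions. Capitals mark matches to the kappaB consensus GGGNNNNNCC, the Rel site GGGAATTTT known from Il12b, and the ETS core GAGGAA, read on both strands, so that matches on opposite strands can overlap. Il23a and Il27 had no entry in that set, so their promoters were not searched.
Il12b promoter, chr11:44399813-44400062, plus strand: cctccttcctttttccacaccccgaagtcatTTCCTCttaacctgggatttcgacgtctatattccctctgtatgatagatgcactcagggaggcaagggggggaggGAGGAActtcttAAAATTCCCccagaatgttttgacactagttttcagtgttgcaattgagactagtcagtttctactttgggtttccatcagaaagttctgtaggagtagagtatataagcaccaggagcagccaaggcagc
Il12a promoter, chr3:68691174-68691423, plus strand: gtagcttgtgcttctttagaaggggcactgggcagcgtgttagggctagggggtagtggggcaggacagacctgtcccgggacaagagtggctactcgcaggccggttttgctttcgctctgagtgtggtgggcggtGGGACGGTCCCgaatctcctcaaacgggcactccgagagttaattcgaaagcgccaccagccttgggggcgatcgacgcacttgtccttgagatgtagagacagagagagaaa
Ebi3 promoter, chr17:55952373-55952622, plus strand: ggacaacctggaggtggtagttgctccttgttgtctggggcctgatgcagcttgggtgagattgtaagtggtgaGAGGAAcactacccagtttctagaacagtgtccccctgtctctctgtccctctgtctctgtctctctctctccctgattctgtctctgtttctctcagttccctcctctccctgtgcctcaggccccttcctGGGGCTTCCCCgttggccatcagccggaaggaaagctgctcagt
The Il12b window held 1 Rel site at positions -131 to -123 from the start, found in 0.265% of 32851 promoter windows of this length, and 2 ETS cores, a motif in 23.3% of windows. The Rel site was chosen as one known from Il12b, so its match there marks a position and is no result of the search. The Il12a window held a kappaB match on both strands between -113 and -103, and the Ebi3 window held overlapping kappaB matches between -44 and -34 and 1 ETS core. The kappaB consensus occurred in 45.8% of windows. None of the 3 windows held an exact match to TGANTCA (AP-1, 6.75% of windows), GAAANNGAAA (ISRE, 2.98%), TTGCNCAA (C/EBP, 2.61%) or TATAAA (12.4%). Only these strings were searched, so variants such as ttgcaat and tatataa in the Il12b window were not counted. A lack of C/EBP or TATA elements does not follow. The Rel site and the kappaB consensus share their GGG but not their ends. The Il12a window lies in an intron of the other Il12a transcript and held 15 CpG dinucleotides, against 3 in Il12b, 2 in Ebi3 and a median of 6 over all windows. The window before the start of that other transcript held no match to any motif searched.

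The 3′ UTRs of the 5 transcripts differed in AU-rich elements, sequences to which proteins that shorten mRNA life are known to bind. The core TATTTAT, counted with overlaps on the coding strand, occurred 5 times in the 497 bases of Il12a, 5 times in the 656 bases of Il23a, 4 times in the 285 bases of Il27, 1 time in the 797 bases of Il12b, and 0 times in the 244 bases of Ebi3. Of 11833 coding transcripts of the table with a 3′ UTR, 25.3% held at least 1 copy and 1.01% at least 4, and of the 3558 with a 3′ UTR in the members' range of lengths, 13.6% and 0.365% did. For each of the 4 genes with a copy, the 30 bases with the most copies are shown from NCBIM37, with the core in capitals.
Il12a 3′ UTR window, chr3:68502359-68502388, plus strand: TATTTATATTTATTTATtttcTATTTATta
Il23a 3′ UTR window, chr10:127733228-127733257, minus strand: TATTTATtcTATTTATaaggaattatgtat
Il27 3′ UTR window, chr7:133732599-133732628, minus strand: TATTTATttcttggaTATTTATTTATtttt
Il12b 3′ UTR window, chr11:44226991-44227020, plus strand: TATTTATtaatttatttctgcatttcacat
Il12a and Il27 have cores that run into each other in these windows, with 4 and 3 copies, whereas Il12b has a lone copy. A match to these letters is a description of the sequence and was not tested for an effect on the RNA.

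Il12b encodes p40, the chain that IL-12 and IL-23 share. In macrophages its group mean was 8 untreated, 8.5 with IL-10, 4281.5 with LPS and 266 with IL-10 and LPS. In neutrophils the same order of treatments gave 6, 2, 13131 and 88.5, the widest range of any member in any cell type. The sDCs were the only cell type with a level above 10 before LPS: 665.5 untreated, 346 with IL-10, 5828 with LPS and 673.5 with both, so that the last group stood at the untreated level. Mast cells were listed at 0 untreated and with IL-10, and reached 58.5 with LPS and 8 with both. Eosinophils had 0.5 untreated and 16 with LPS. Of the Il12b summed over the 18 groups, neutrophils held 52.1% and sDCs 29.6%. In these bulk samples, fewer cells of a type and less RNA per cell cannot be told apart.

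Il12a encodes p35, the partner of p40 in IL-12. Macrophages had 10.5 untreated, 0.5 with IL-10, 3050 with LPS and 644 with both. Neutrophils had 147, 210, 1054 and 359, and they were the only cell type with more than 25 before LPS. In sDCs the values were 10, 12.5, 363.5 and 76.5. Il12a thus reached a lower level in sDCs with LPS than in neutrophils, where LPS started from a higher one. Mast cells had 8, 24.5, 34 and 37.5, with no lower value in the group that received IL-10 before LPS. Eosinophils had 3 untreated and 2 with LPS, below the minimum of 10. Macrophages held 61.3% of the Il12a summed over all groups.

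Il23a encodes p19, the partner of p40 in IL-23, and it reached 100 in 3 of the 18 groups. Neutrophils had 8.5 untreated, 9.5 with IL-10, 1742 with LPS and 108.5 with both. Macrophages had 3 untreated, were listed at 0 with IL-10, and had 188 with LPS and 9.5 with both. The sDC groups had 4, 2, 45.5 and 9.5. Il23a was mostly a transcript of the neutrophil groups, which held 87.2% of its sum. Mast cells ranged from 0 to 6 and eosinophils from 1.5 to 2.5, all below 10.

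Il27 encodes p28, the cytokine subunit of IL-27. Macrophages had 14 untreated, 59 with IL-10, 5752.5 with LPS and 2087.5 with both. In sDCs the values were 5.5, 9, 1405 and 1434.5, so the 2 groups with LPS differed by 1.02-fold. Neutrophils had 90, 111, 893 and 220.5, a smaller range that began above 50 without LPS. Mast cells had 1.5 untreated, were listed at 0 with IL-10, and had 167.5 with LPS and 58 with both. Eosinophils had 78.5 untreated and 83 with LPS.

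Ebi3 encodes the receptor-like subunit of IL-27, and it was above 100 in all 18 groups. Macrophages had 742 untreated, 769 with IL-10, 1896 with LPS and 1985 with both. Neutrophils had 1866.5, 1704.5, 7459 and 7678.5, the highest Ebi3 values in the table. In sDCs the values were 197, 198.5, 4975 and 4706. In these 3 cell types each pair of groups that differed only by IL-10 differed by at most 1.09-fold. Mast cells had 171, 144.5, 914 and 726, and eosinophils 2431.5 untreated and 4695 with LPS. Untreated eosinophils held more Ebi3 than any other untreated group, and neutrophils stood next to them.

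**Figure D1:**
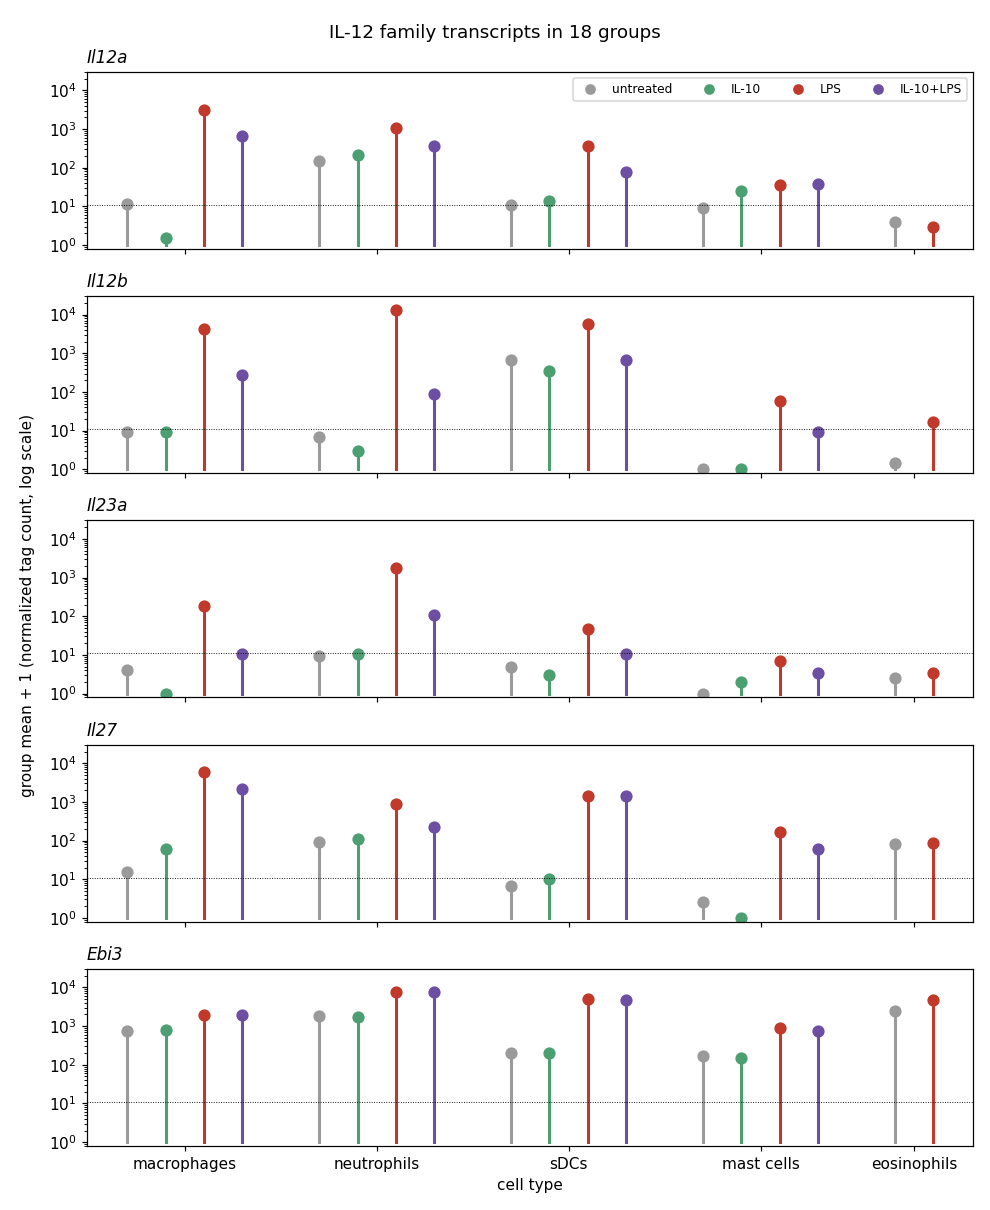
Group means of the 5 members, 1 panel each, in 18 groups of 5 cell types (horizontal axis) on a log scale of the normalized tag count plus 1 (vertical axis), with colour for treatment and a dotted line at the minimum of 10. Ebi3 stands above the line in all groups and its LPS and IL-10+LPS points are level, whereas Il12b falls from 13131 to 88.5 between those groups of neutrophils.

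The first comparison asked how LPS changed the family in each cell type. In macrophages LPS raised 5 of 5 members, where 12.7% of 6064 genes were raised: Il12b by 8.89 on the log2 scale, Il27 by 8.58, Il12a by 8.05, Il23a by 5.56 and Ebi3 by 1.35. Il12b, Il27 and Il12a ranked 2, 4 and 9 among these genes, and the member median of 8.05 stood beside -0.15 over all of them. In neutrophils LPS raised 5 of 5, against 8.71% of 5949 genes, with Il12b at rank 1 (10.87), Il23a at rank 13 (7.52), and Il27, Il12a and Ebi3 at 3.30, 2.83 and 2.00. By log2 difference, macrophages and neutrophils thus differed in the chains that came next to p40: p28 and p35 in the former and p19 in the latter. This order follows the untreated levels too: Il12a and Il27 began at 10.5 and 14 in macrophages and at 147 and 90 in neutrophils. As a difference of means, Il27 (5738.5) rose more than Il12b (4273.5) in macrophages. In neutrophils Ebi3 (5592.5) came next to Il12b (13125), ahead of Il23a (1733.5).

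In sDCs LPS raised 5 of 5 members, against 9.04% of 6050 genes. Il27 led with a log2 difference of 7.76 (rank 4), followed by Il12a at 5.05, Ebi3 at 4.65, Il23a at 3.22 and Il12b at 3.13. The p40 chain had the smallest log2 difference of the 5 here, just below Il23a, from the level of 665.5 that sDCs already had. With a pseudocount of 10 Il12b stood at 3.11 and Il23a at 1.99. As a difference of means, the rise of Il12b in sDCs (5162.5) was the largest of the 5. In mast cells 4 members reached the minimum and LPS raised 4 of 4, against 4.76% of 5734 genes: Il27 by 6.07, Ebi3 by 2.41 and Il12a by 1.96, while Il12b went from listed at 0 to 58.5. In eosinophils LPS raised 1 of 3 members, against 2.16% of 5559 genes. That member was Il12b, which reached 16, and it is not counted with a minimum of 50. Ebi3 in eosinophils differed by 0.95, or 1.93-fold, just under the call, and ranked 127 of the 5559 genes, while Il27 differed by 0.08. LPS lowered no member in any cell type, where it lowered between 0.702% (eosinophils) and 14.8% (macrophages) of all genes, with neutrophils at 7.88%, mast cells at 5.46% and sDCs at 11.5%.

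These counts rest on a filter that LPS itself could satisfy. Of the 25 combinations of member and cell type, 22 had a group mean of at least 10, and 9 of these reached it only in groups with LPS. The 9 were Il12b in macrophages, neutrophils, mast cells and eosinophils, Il23a in macrophages, neutrophils and sDCs, and Il27 in sDCs and mast cells. A gene that passes in this way had to differ, so the counts are given as a description of the members and not as a share of a fair sample. The 3 combinations that did not pass were Il23a in mast cells and eosinophils and Il12a in eosinophils.

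Marker genes of the cells moved with LPS as well. In neutrophils the 4 of 9 macrophage markers in the table summed to 7588.5 untreated, 8398 with IL-10, 18173 with LPS and 10172.5 with both. Most of that difference was Emr1 (F4/80), with 4346, 4305.5, 14667.5 and 5157.5, and Marco went from listed at 0 without LPS to 241 with LPS and 14.5 with both. The other 2 markers did not follow: Cd68 had 2788, 3319, 3140 and 4387.5, and Mrc1 had 454.5, 773.5, 124.5 and 613. Over the same groups the 6 neutrophil markers summed to 288883, 308406.5, 64189 and 101335. Mmp8, Mmp9 and Cxcr2 carried that difference, while Mpo had 22826 untreated and 20675 with LPS, Elane 13402 and 10179, and Ly6g 161.5 and 158.5. In sDCs the macrophage markers summed to 6070.5 untreated and 3312 with LPS, and the neutrophil markers to 8825 and 2312.5. The part of these shifts in the values of Il12b and Il23a was not tested.

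The second comparison asked whether IL-10 alone changed the family. In macrophages IL-10 raised 1 of 5 members and lowered 2, where 2.34% and 2.14% of genes were raised and lowered. Il27 went from 14 to 59, a log2 difference of 2.00, Il12a from 10.5 to 0.5, and Il23a from 3 to listed at 0. In neutrophils it raised none and lowered 1, Il12b from 6 to 2, against 1.26% and 0.908% of genes. In sDCs it raised and lowered none of 5, against 1.60% and 0.826%, and Il12b came nearest with 665.5 and 346, a log2 difference of -0.94. In mast cells it raised 1 of 4, Il12a from 8 to 24.5, and lowered 1, Il27 from 1.5 to listed at 0, against 2.25% and 2.79%. All 5 calls other than Il27 in macrophages lie between values under 25, where the call depends on the pseudocount. Of these, Il23a in macrophages, Il12b in neutrophils and Il27 in mast cells passed the filter only through groups with LPS. Both values compared in them lie below 10, so these counts too are a description. Ebi3 differed by at most 0.24 on the log2 scale in any of the 4 cell types.

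The third comparison asked what IL-10 given before LPS did to the response. In macrophages it lowered 4 of 5 members against LPS alone, where 4.58% of genes were lowered. The log2 differences were -4.17 for Il23a, -4.00 for Il12b, -2.24 for Il12a and -1.46 for Il27. In neutrophils it lowered the same 4, against 3.87% of genes. Il12b and Il23a were there the first and second of 5949 genes by size of the fall, with log2 differences of -7.20 and -3.99, and Il27 and Il12a differed by -2.01 and -1.55. On the mean + 1 scale the fall of Il12b in neutrophils was 147-fold.

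In sDCs IL-10 lowered 3 of 5 members, against 2.08% of genes: Il12b (-3.11), Il12a (-2.23) and Il23a (-2.15), which ranked 4, 9 and 10 of 6050 genes by size of the fall. Il27 in sDCs was not among them, with a log2 difference of 0.03, whereas it was lowered in macrophages, neutrophils and mast cells. In mast cells it lowered 2 of 4 members, against 4.66% of genes, Il12b (-2.72) and Il27 (-1.51), and Il12a differed by 0.14. IL-10 before LPS raised no member in any of the 4 cell types, where it raised 2.61% of all genes (sDCs), 2.88% (mast cells), 3.06% (neutrophils) and 3.12% (macrophages). Ebi3 was neither raised nor lowered in any of them, with log2 differences that ran from 0.07 and 0.04 in macrophages and neutrophils to -0.08 in sDCs and -0.33 in mast cells. The median over the 5 members was -2.24 in macrophages, -2.15 in sDCs and -2.01 in neutrophils, beside medians over all genes of -0.01, 0.04 and 0.00, and over the 4 kept in mast cells it was -0.92, beside -0.03. The filter bears on these falls too: Il23a in macrophages and in sDCs and Il12b in mast cells reached 10 only in the LPS group, from which the fall is measured, so their calls had to point down and the counts are a description. The differences between cell types were not tested, and comparisons within a cell type share the LPS group.

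**Figure D2:**
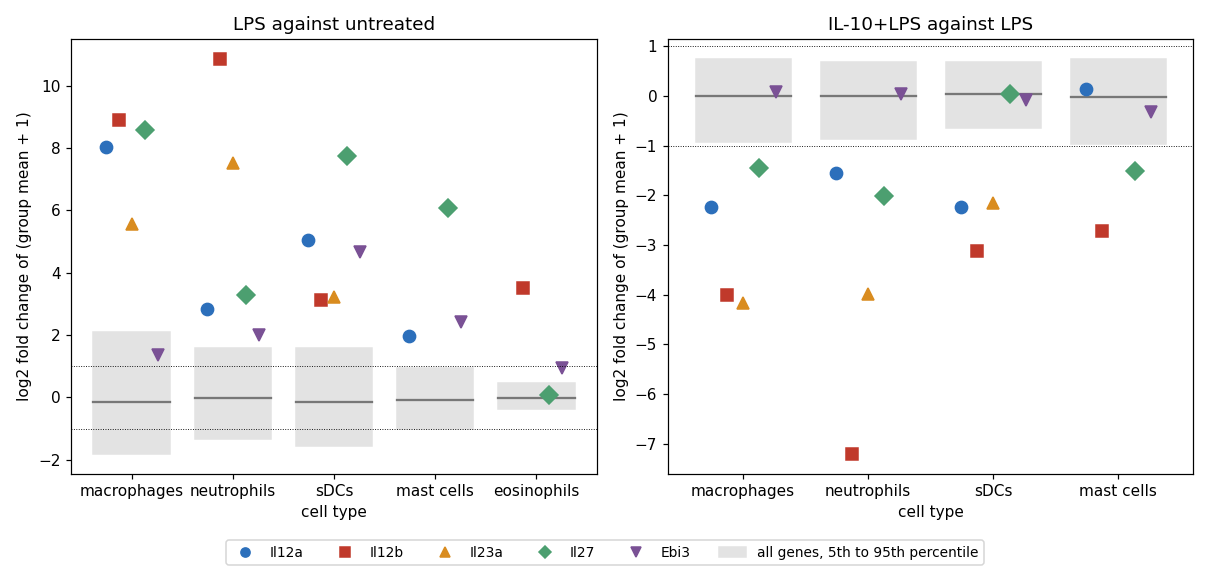
Log2 fold change of each member (symbols) in each cell type (horizontal axis), for LPS against untreated on the left and IL-10+LPS against LPS on the right, with grey boxes for the 5th to 95th percentile and a grey line for the median of all genes kept, and dotted lines at 2-fold. Members with no group of at least 10, and Il12b in mast cells with LPS, which starts from a listed 0, are not drawn. On the right Ebi3 lies inside the grey box in all 4 cell types, and Il12b lies at -7.20 in neutrophils.

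The rise with LPS in cells that had received IL-10 was set against the rise in cells that had not, as a share of the latter. For Il12b 6.03% of the rise was left in macrophages, 6.34% in sDCs, 13.7% in mast cells and 0.659% in neutrophils. For Il23a 5.14%, 5.71% and 18.1% were left in macrophages, neutrophils and sDCs. The 2 chains of IL-23 therefore kept similar small shares in macrophages, where Il23a was listed at 0 with IL-10 and had 9.5 with IL-10 and LPS. The shares of Il12b and Il23a lay further apart in neutrophils (0.659% and 5.71%) and in sDCs (6.34% and 18.1%). For Il12a 21.2%, 16.4% and 18.1% were left in macrophages, neutrophils and sDCs, and in mast cells a rise of 26 became 13. That smaller rise in mast cells began from 24.5 with IL-10 against 8 untreated. The level with IL-10 and LPS (37.5) was not below that with LPS alone (34). For Il27 the shares spread most, from 13.6% in neutrophils and 34.9% and 35.3% in mast cells and macrophages to 102% in sDCs. For Ebi3 they were 107% in neutrophils, 105% in macrophages, 94.3% in sDCs and 78.3% in mast cells.

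**Figure D3:**
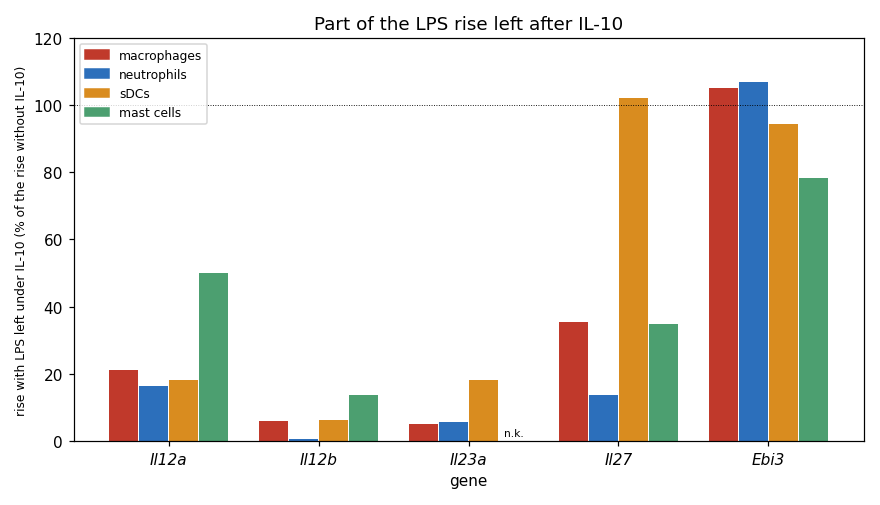
Rise with LPS after IL-10 (IL-10+LPS minus IL-10) as a percent of the rise without it (LPS minus untreated), for each member on the horizontal axis and each cell type by colour, with a dotted line at 100%; n.k. marks Il23a in mast cells, which did not reach the minimum of 10. The Il12b bars run from 0.659% to 13.7% and the Ebi3 bars from 78.3% to 107%, and Il27 reaches 102% in sDCs. The Il12a bar of mast cells rests on values of 37.5 or less.

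The chains of each heterodimer were then compared as levels per kilobase of transcript, since longer transcripts give more tags. For IL-12, Il12b and Il12a were nearly level in macrophages with LPS, at 2301 and 2398 per kb. Il12b was 8.52 times Il12a in neutrophils with LPS (7056 and 829) and 1.18 times in mast cells (31.4 and 26.7), and in sDCs with LPS the levels were 3132 and 286. With IL-10 before LPS, Il12a was the higher chain by 3.54 times in macrophages (506 and 143) and by 5.93 times in neutrophils (282 and 47.6). In sDCs Il12b stayed the higher chain under all 4 treatments, by 45.5 times untreated and 6.02 times with both. Among the 9 groups in which both chains had at least 10 tags, Il12b was the higher in 6 and Il12a in 3.

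For IL-23, both chains reached 10 in 4 groups. Il12b was the higher by 16.6 times in macrophages with LPS (2301 and 138 per kb), by 5.50 times in neutrophils (7056 and 1282) and by 93.5 times in sDCs (3132 and 33.5). In neutrophils with both IL-10 and LPS the order was the other way, with Il23a at 79.8 and Il12b at 47.6 per kb. As p40 serves both cytokines, its level was also set against the sum of p35 and p19. With LPS the ratio was 0.907 in macrophages, 9.81 in sDCs and 3.34 in neutrophils, and with IL-10 and LPS it was 0.278, 5.39 and 0.131. Only in sDCs of these 3 was p40 above the sum of its partners in both groups.

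For IL-27, Ebi3 was the higher chain in 12 of the 14 groups in which both had at least 10 tags. The other 2 were macrophages with LPS, with Il27 at 5634 and Ebi3 at 1621 per kb, and macrophages with IL-10 and LPS, with 2045 and 1697. In sDCs Ebi3 was 3.09 times Il27 with LPS (4252 and 1376) and 2.86 times with both (4022 and 1405). In neutrophils it was 7.29 times Il27 with LPS (6375 and 875) and 30.4 times with both (6563 and 216), as Il27 was lowered and Ebi3 was not. In eosinophils it was 27.0 times untreated and 49.4 times with LPS. For the pair described as IL-35, Ebi3 was above Il12a in 13 of 14 such groups, and macrophages with LPS were the exception (1621 and 2398 per kb).

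**Figure D4:**
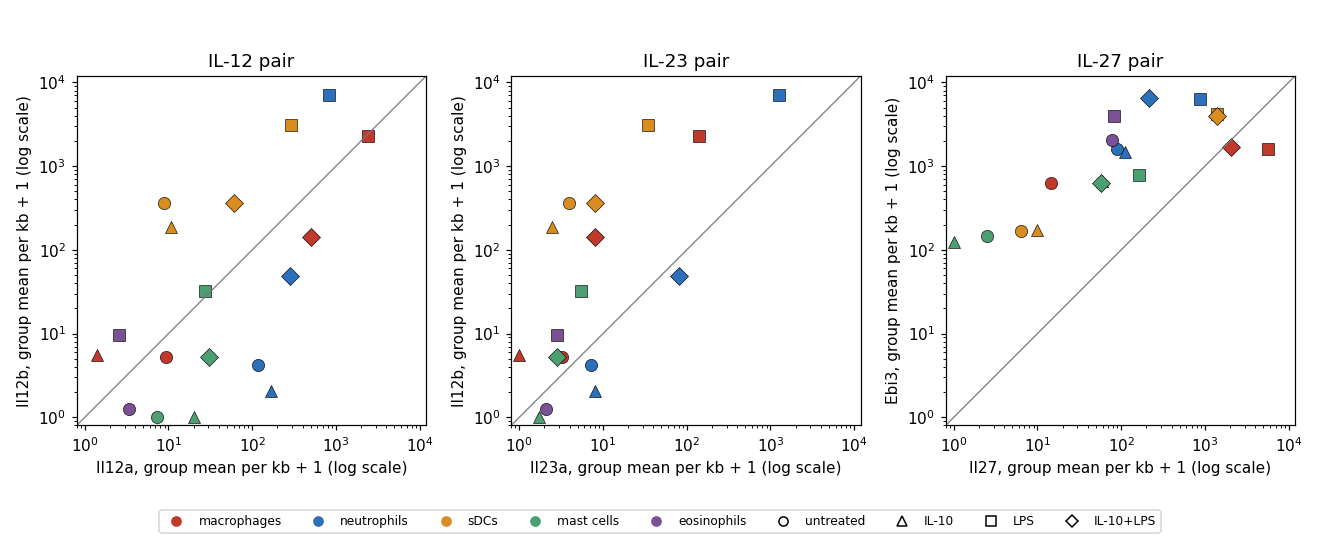
Levels per kb plus 1 on log scales for the chains of IL-12 (Il12a and Il12b), IL-23 (Il23a and Il12b) and IL-27 (Il27 and Ebi3), 1 point per group, with colour for cell type, symbol for treatment and a grey line where both chains are equal. Some points overlap, as for sDCs with LPS and with both in the IL-27 panel, and the red square and diamond below the line there are macrophages with LPS and with IL-10+LPS.

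The chains of a pair also differed in how far LPS moved them. The log2 difference of Il12b with LPS exceeded that of Il12a by 8.04 in neutrophils and 0.84 in macrophages, and it was lower by 1.92 in sDCs (-1.92). Il12b exceeded Il23a by 3.33 in macrophages and 3.35 in neutrophils, and stood at -0.09 from it in sDCs. The difference of Ebi3 minus that of Il27 was -7.23 in macrophages, -3.66 in mast cells, -3.11 in sDCs, -1.30 in neutrophils and 0.87 in eosinophils. In the 4 cell types other than eosinophils the p28 chain therefore had the larger log2 difference, from values of 90 or less. As a difference of means, Ebi3 rose more than Il27 in neutrophils, sDCs and mast cells, and less in macrophages.

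The rest of the pathway was read from a list of 60 genes for receptors, signalling, transcription factors and companion cytokines. Of these, 27 were among the genes read from the shortened copy of the table. LPS raised 13 of 27 and lowered 1 in macrophages, where 12.7% of all genes were raised and 14.8% lowered. It raised 14 and lowered none in neutrophils (8.71% and 7.88% of all genes), and raised 9 and lowered 1 in sDCs (9.04% and 11.5%). In mast cells 9 of 26 were raised (4.76%) and in eosinophils 3 of 25 (2.16%). The list's median log2 difference was 1.01 in neutrophils, 0.74 in macrophages, 0.50 in mast cells, 0.39 in eosinophils and 0.05 in sDCs, beside medians over all genes between -0.15 and -0.02. Transcription factors made up much of this. In macrophages 7 of 10 were raised, among them Nfkbiz, an IkappaB protein that acts in the nucleus, from 290.5 to 11105, Irf1 from 993 to 11859.5, Nfkb1, the p50 precursor, from 2374.5 to 17321, and Rel, the NF-kappaB subunit c-Rel, from 527 to 1837. In sDCs 3 of 10 were raised (Nfkbiz, Nfkb1 and Irf1), and Rel had 5020.5 untreated and 4077.5 with LPS. The untreated level of Rel in sDCs was thus above its level with LPS in macrophages (1837) and neutrophils (1926).

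IL-10 alone raised 3 of the 27 genes in macrophages (2.34% of all genes), 2 in neutrophils (1.26%) and none in sDCs (1.60%), and 1 of 26 in mast cells (2.25%), and lowered none. IL-10 before LPS left most of the pathway list within 2-fold of LPS alone. It raised 2 of 27 and lowered 3 in macrophages, where 3.12% of all genes were raised and 4.58% lowered, and raised none and lowered 5 in neutrophils (3.06% and 3.87%). It raised 1 and lowered 2 in sDCs (2.61% and 2.08%), and raised 1 of 26 and lowered 2 in mast cells (2.88% and 4.66%). The companion cytokines were lowered most often, with 3 of 3 in both macrophages and neutrophils and 2 of 3 in sDCs. Tnf, a leading inflammatory cytokine, had 185338 with LPS and 22865 with both in macrophages, the former being the ceiling of the table. Il15, a cytokine that acts on NK and T cells, went from 2678.5 to 966.5 in macrophages, and Il18, which acts with IL-12 on interferon gamma, from 894.5 to 419. Of the 10 transcription factors, Irf5 was lowered in neutrophils (3951.5 and 1759.5) and Cebpb raised in sDCs (697 and 1792.5), and the other 38 combinations of factor and cell type were neither. The Il10 gene itself was lowered in neutrophils, from 1601 to 221, and raised in mast cells, from 5 to 208.5, where IL-10 alone had also raised it, from 1.5 to 159.5.

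Of the 5 receptor chains listed, Il12rb1 and Il27ra were in the table. Il12rb1, a receptor chain for IL-12 and IL-23, had 12.5 untreated, 42 with IL-10, 16.5 with LPS and 48 with both in macrophages, so it was raised by IL-10 with and without LPS, at a low level.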

How the data were processed

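RNA was sequenced in 37 samples, of which 36 are myeloid libraries in 18 groups of 2; the T cell sample was not analysed here, having no column in the table read. The deposited unit is a score. To make it, the authors aligned reads to Ensembl mm9 transcripts by bowtie 0.12.9 within RSEM 1.2.1 (versions as in the submitters' processing notes), corrected the tag counts for GC content in EDASeq, and averaged the replicates, which came from independent mice. The study's methods name DESeq for its tests, whose values are not in the table. Replicate 1 of untreated and IL-10 macrophages comes from earlier libraries, the macrophage replicates differ in depth and the mast cell replicates in library kit. None of this can be separated in means, and no counting error can be given.

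The copy of the table read here held 17015 complete lines and 1 broken last line, at which it is cut short. Genes and transcripts absent from this copy may be in the full table. Shares, ranks and medians over all genes therefore cover part of the transcriptome. Of the complete lines, 22 (0.129%) without a gene name were left out, leaving 16993 transcripts of 6509 genes. All values are multiples of 0.5, and 0 columns of per-sample values were left unused. Transcripts were summed per gene. In each cell type, genes that reached 10 in any group were kept, log2 fold changes were taken with a pseudocount of 1, and 2-fold was called. With 1 mean per group no test was run, in place of the limma fit planned for replicate values. The procedure was tested on simulated data with known changes. These were planted only in genes well above the minimum when untreated, so the low untreated values of many members were not covered. Alternatives were other pseudocounts, minima, fold thresholds, centring and transcript choices. Positions, lengths and 3′ UTRs came from GENCODE vM1 (NCBIM37), and promoters from RefSeq (GRCm38.p6), each matched at a single place in NCBIM37. Named genes were the members, the genes of a pathway list in the table, and for each member the 3 genes with the highest correlation among those with a group mean of at least 50. The values of 1 pathway gene are not reported here. Members, pathway list, marker lists and alternatives were chosen with earlier results of these data known. Python 3.11.15, numpy 2.4.6, pandas 2.3.3 and matplotlib 3.10.9 were used.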

Additional observations from a re-analysis of the deposited data

How the results depend on the processing

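No paired analysis was possible because the table holds 1 mean per group, and for the same reason no replicate could be left out. Shifts of up to 1.5-fold were counted as the same. No called change turned its direction. Among values near 0, 2 differences between chains in sDCs changed sign, and so did Il27 in sDCs with IL-10 before LPS (0.03, and -0.01 when centred on the median of all genes). In macrophages and neutrophils the numbers of members raised by LPS (5 and 5) and lowered by IL-10 before LPS (4 and 4) were the same under every alternative run. With a minimum of 50, LPS raised 0 in eosinophils, 3 in mast cells and 4 in sDCs, and IL-10 before LPS lowered 2 in sDCs. With no minimum, mast cells had 5 raised and 3 lowered, Il23a being added, and with a 1.5-fold call LPS raised 2 in eosinophils. Members changed by IL-10 alone numbered 1 in macrophages, 0 in neutrophils and 0 in mast cells with a pseudocount of 10, 3 in sDCs with a 1.5-fold call, and in mast cells 1 with a minimum of 50 and 3 with none. A pseudocount of 10 also moved differences between the chains of a pair: Il12b minus Il12a to 6.92 in neutrophils and -1.11 in sDCs, Il12b minus Il23a to 3.97 in macrophages and from -0.09 to 1.12 in sDCs, Ebi3 minus Il27 to -6.57 in macrophages, -1.92 in sDCs and -1.60 in mast cells, and Ebi3 minus Il12a to -5.88 in macrophages, from -0.40 to 0.37 in sDCs and from 0.45 to 1.06 in mast cells. A larger pseudocount pulls low values together by construction. Of 224 log2 fold changes of single members recomputed, 17 moved, all with a pseudocount of 10, and 207 did not. At that pseudocount, 12 of the differences with LPS moved and 9 did not. With IL-10 before LPS 3 moved and 16 did not, and with IL-10 alone 2 moved and 14 did not. The transcript setting could move none, as each member has 1 transcript, and centring shifted every value by less than 1.5-fold. Ratios between chains could not move with the choice of transcript either. The longest annotated transcripts have 1303 bases for Il12a and 1944 for Il12b, against 1272 and 1861 used, and the other lengths are unchanged. A shift of 1.5-fold in a ratio was therefore not possible with the longest lengths. Depth could not be read from the table, so no limit can be set for a value listed at 0.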

Other observations

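The 5 genes were also compared by pattern over the 18 groups, on log2(mean + 1). These points share cell types, libraries and normalization, so the Pearson correlations describe the table and carry no test. Among the members, the coefficient was 0.84 for Il12a and Il23a, 0.81 for Il27 and Ebi3, 0.75 for Il12b and Il23a and 0.61 for Il12a and Il12b, and it was lowest for Il12b and Ebi3 at 0.42. The chains of IL-12 thus had less similar patterns over these groups than p35 and p19, which do not pair. Of the 6248 genes with a group mean of at least 50, those most like Il12b were Icam1, an adhesion molecule, at 0.92, Lad1 at 0.91 and Macc1 at 0.90. Those most like Il12a were Tnf at 0.86, Puf60 at 0.85 and Il23a at 0.84. For Il23a they were Ets2, a transcription factor, at 0.84, Il12a at 0.84 and Rnf34 at 0.83. Those most like Il27 were Gpr85 at 0.89, Tnf at 0.88 and Pfdn4 at 0.87, and those most like Ebi3 were Sp100 at 0.89, Tra2b at 0.87 and Niacr1 at 0.86. Nothing about shared control follows from these lists.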
